A study of Mus musculus with 12 samples.

Results

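Intracranial B16 F1 melanomas from 6 mice that also carried an extracranial tumor were compared: 3 from mice given anti-PD-1 plus anti-CTLA-4 (called therapy) and 3 from mice given control IgG, out of 12 libraries in the series. Both groups were C57BL/6 mice whose brains received 100000 cells of the line, a pigmented mouse melanoma, and whose tumors were dissected at day 9, per the labels. The other 6 libraries, from mice with the intracranial tumor only, were 3 with therapy and 3 with IgG. They entered the fit and 1 contrast of effects below. The series text calls the libraries biological triplicates. The labels give no antibody dose or schedule. A single cell line stands for melanoma in every mouse. Every gene was a candidate: 15925 of 47069 genes in the count table passed the filter on low counts and were tested.

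PD-1 and CTLA-4 are inhibitory receptors of T cells, and antibodies that block them release T cells to divide and to attack tumors. T cells that recognise their target secrete interferon gamma, which turns on antigen presentation in many cells and arms macrophages. A dissected brain tumor also holds glia, neurons, vessels and myeloid cells, so a gene's level in such tissue combines how many cells of each type were present with how much RNA each cell made. In these bulk libraries, fewer cells of a type and less RNA per cell cannot be told apart. A dividing cell turns on sets of genes in turn, first for DNA synthesis under the E2F factors and then for mitosis, and it makes more ribosomes, nucleotides and nuclear pores.

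The therapy libraries held 19773654 to 21786625 reads and the IgG libraries 19334918 to 20648957. All 14 melanocyte and pigment genes were detected in each of the 6 libraries, with summed levels of 28406 to 33434 CPM (read counts scaled to a common library size, with TMM factors) with therapy and 27956 to 32516 CPM with IgG. Replicate numbers follow accession order and mark no pairing. IgG replicate 2 stood apart: its log2 CPM correlated at 0.933 and 0.917 with the other IgG replicates, which correlated with each other at 0.986 (Pearson, across genes). On the first principal component of all 12 libraries, the therapy libraries lay at 61.6, 137 and 124, and the IgG libraries lay at 35.6, -115 and 54.6. The 13 neuron genes of a marker list summed to 404, 1637 and 1246 CPM in the therapy libraries, against 513, 23.1 and 704 CPM in the IgG libraries, lowest in IgG replicate 2. The sample name of that library has a suffix that no other library has and that the labels do not explain. For some genes and for list medians, fold changes are also given without it.

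In edgeR's quasi-likelihood test, 858 genes (5.39% of those tested) passed an adjusted p of 0.05, with 198 higher (1.24%) and 660 lower (4.14%) with therapy. Their adjusted p-values all lay between 0.0498 and 0.0499, just inside the threshold, while 5317 genes had an unadjusted p under 0.05, of which 2253 were higher and 3064 lower. The count of calls was 0 when the 6 libraries were fitted alone, when DESeq2-style size factors (RLE) replaced TMM, when IgG replicate 2 was left out and when the neuron list was a covariate, and it was 3323 with DESeq2 and 1695 with limma voom. Leaving out 1 library gave 0 calls for therapy replicate 2 or 3 and IgG replicate 1 or 2, 2394 without therapy replicate 1 and 2064 without IgG replicate 3. Of the 858 calls, 840 were also called by DESeq2 and 846 by limma voom. No called gene changed sign in any of the settings run, but all 858 had groups that did not overlap (below), which left little room for a change. "Rose" and "fell" below refer to the 858 calls, and each of them carries these limits.

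The genes that rose changed by a median log2 fold change of 1.27, and those that fell by -0.79. Without IgG replicate 2 these medians were 1.15 and -0.64. Changes of 2-fold or more were found for 132 of the genes that rose and 226 of those that fell. The genes that fell were the more abundant, with a median of the mean level of 56.8 CPM, against 21.1 CPM for those that rose. Over all genes tested the median log2 fold change was 0.02.

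**Figure D1:**
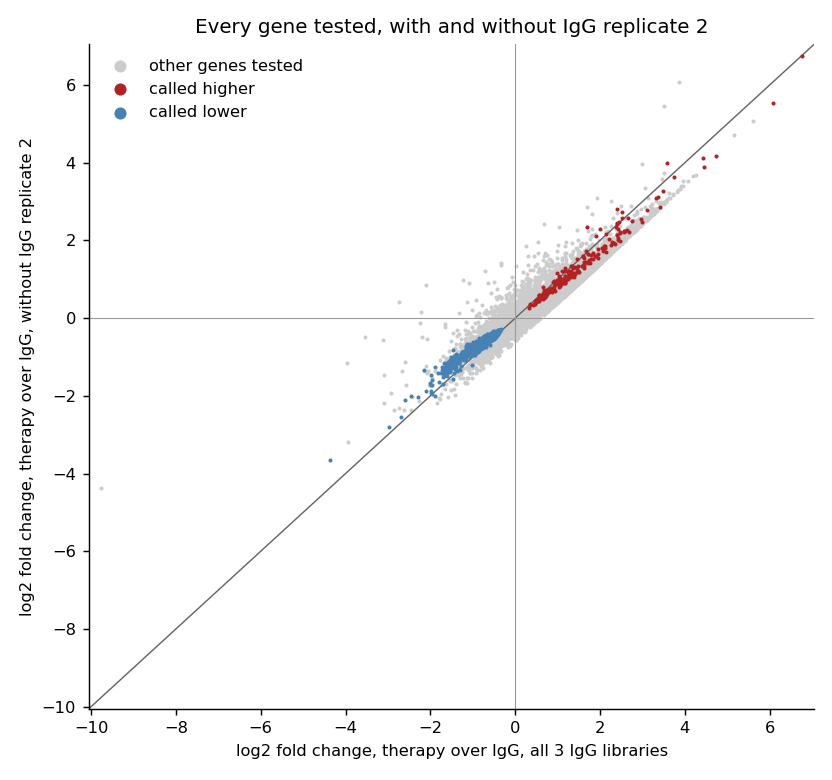
Log2 fold change (therapy over IgG) of each of the 15925 genes tested, with all 3 IgG libraries on the x axis and without IgG replicate 2 on the y axis, where the diagonal marks equal values. The 198 genes called higher and the 660 called lower keep their side of 0 and most lie nearer to 0 on the y axis, with medians of 1.15 in place of 1.27 and of -0.64 in place of -0.79.

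Library by library, a gene was called separated when all libraries of one group lay above all of the other. All 3 therapy libraries lay above all 3 IgG libraries for 2845 genes (17.9%) and below them for 3207 (20.1%). With RLE factors the balance turned, with 3025 above and 2915 below. All 198 genes that rose and all 660 that fell were among the genes separated with TMM factors. All 858 kept their sign in each of 12 fits that left out 1 library, but separated groups stay separated when a library is dropped. That outcome was therefore all but fixed in advance and gives no further support. A gap of 2-fold or more between the nearest libraries of both groups was seen for 201 genes above IgG and 16 below, so separations were wide mostly where therapy was higher. The libraries held fixed positions. Therapy replicate 1 was the therapy library nearest to IgG for 2247 of the 2845 genes above and 2303 of the 3207 below, and IgG replicate 2 was the IgG library farthest from therapy for 2279 and 2538. Therapy replicate 2 was the most extreme therapy library for 1525 genes above and 2452 below. Without therapy replicate 1 the counts of separated genes were 5316 above and 4404 below, and without IgG replicate 2 they were 3332 and 3781.

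Many genes of the cell cycle fell. The lists on replication, mitosis, kinetochores, chromosome structure and double-strand break repair, 5 in all, held 117 tested genes. Of these, 61 fell (against 4.14% of all genes tested) and 0 rose. All 3 therapy libraries lay below all 3 IgG libraries for 108 of the 117 (against 20.1% of all genes) and above them for 1 (against 17.9%). The median log2 fold change of the 117 was -1.31, and -0.97 without IgG replicate 2, against 0.02 over all genes. Ccnb1 (chr13:100778650-100786570, GRCm38), cyclin B1 of the mitotic kinase, had 41.0, 13.2 and 28.1 CPM in the therapy libraries, against 83.1, 146 and 61.7 CPM in the IgG libraries. The lowest IgG library was above the highest therapy library, and therapy replicate 2 was lowest. Its log2 fold change was -1.82 ± 0.40 (SE) and -1.40 without IgG replicate 2. Mki67 (chr7:135689784-135716361), which encodes the proliferation antigen Ki-67, had a mean of 80.2 ± 44.4 CPM with therapy, against 236 ± 60.7 CPM with IgG (SD, n = 3 each), a log2 fold change of -1.56 ± 0.39.

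**Figure D2:**
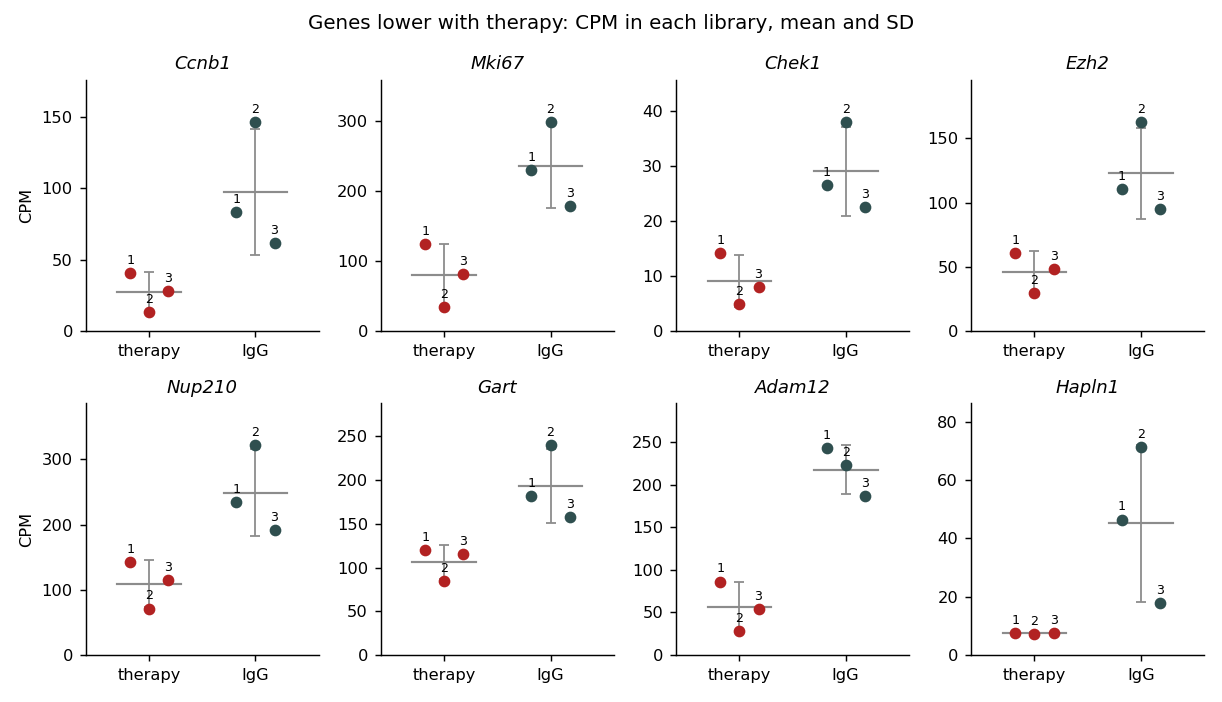
CPM of 8 genes that fell, in each therapy library (left) and each IgG library (right), with points numbered by replicate, a horizontal line at the mean and bars of 1 SD. The groups do not overlap for any of the 8, therapy replicate 2 is the lowest library for each, and IgG replicate 2 is the highest library for all but Adam12.

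All 28 genes of the G2 and mitosis list were tested, and for all 28 each therapy library lay below each IgG library. 15 of them fell. Top2a, the topoisomerase that untangles chromosomes, had 240, 90.3 and 195 CPM with therapy, against 421, 555 and 329 CPM with IgG. Kif11, the motor that separates spindle poles, had 48.6, 16.4 and 34.6 CPM with therapy, against 88.2, 129 and 69.5 CPM with IgG. Cenpa, the histone that marks centromeres, had 34.2, 13.6 and 21.5 CPM with therapy, against 55.8, 120 and 47.2 CPM with IgG. For these 3 genes the groups did not overlap, and IgG replicate 2 was highest.

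Of the 32 genes of DNA replication and S phase, 22 fell and 31 had all therapy libraries below all IgG libraries. Lig1, the ligase that joins Okazaki fragments, had 69.1, 32.4 and 49.8 CPM with therapy, against 110, 161 and 86.1 CPM with IgG. Gins2, a subunit of the replicative helicase, had 10.9, 8.11 and 11.4 CPM with therapy, against 21.5, 33.5 and 16.5 CPM with IgG. Pola1, the catalytic subunit of the polymerase that primes replication, fell by 1.12 ± 0.25 on the log2 scale and by 0.95 without IgG replicate 2. Rfc3, a subunit of the loader of the sliding clamp, fell by 0.75 ± 0.17 and by 0.52.

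Among 21 kinetochore and centromere genes, 8 fell, including Cenph and Ndc80, with log2 fold changes of -1.56 ± 0.37 and -1.46 ± 0.32, and Cenpc1 with -0.48 ± 0.11. Among 14 condensin and cohesin genes, 8 fell, including the condensin subunit Ncapd2 at -1.42 ± 0.33 and the cohesin subunit Stag1 at -0.67 ± 0.13. Among 22 double-strand break repair genes, 8 fell. Chek1, the kinase that holds the cycle when replication stalls, had 14.1, 4.92 and 8.08 CPM with therapy, against 26.5, 38.0 and 22.6 CPM with IgG. Mre11a, a nuclease that trims broken ends, had 32.8, 23.6 and 29.3 CPM with therapy, against 52.4, 52.6 and 43.1 CPM with IgG. The IgG values of Mre11a were close to each other, and its log2 fold change was -0.79 ± 0.13, and -0.74 without IgG replicate 2. The mismatch repair gene Pms1 fell by 0.69 ± 0.15.

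Chromatin regulators fell in 9 of 20 genes (against 4.14% of all genes tested), with 15 of 20 separated in that direction (against 20.1%). Ezh2, the methyltransferase of Polycomb complex PRC2, had 61.1, 29.4 and 48.4 CPM with therapy, against 110, 163 and 95.4 CPM with IgG. Dnmt1, which copies DNA methylation to new strands, had 182, 96.9 and 151 CPM with therapy, against 293, 392 and 257 CPM with IgG. Both genes were below every IgG library in every therapy library.

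Measures of other cells moved with these genes. The T cell identity list, 16 of 16 tested, summed to 128, 293 and 268 CPM in the therapy libraries, against 61.9, 13.5 and 81.1 CPM in the IgG libraries, with no marker at 0 in all 6. The neuron list overlapped between groups for all 13 genes, and its sums, given above, were lowest in IgG replicate 2, the library highest in cell cycle genes, and highest in therapy replicate 2, the library lowest in them. Therapy replicate 1 departed from this order. Its neuron sum of 404 CPM was below the 513 and 704 CPM of IgG replicates 1 and 3. Its mean log2 CPM of the cell cycle genes, 5.08, was also below theirs, 5.67 and 5.42. With the neuron list as a covariate 0 genes passed the threshold (2511 had an unadjusted p under 0.05), and no called gene changed sign. The part of cell makeup in the fall of the cell cycle genes was otherwise not tested. The melanocyte and pigment list was separated between groups for 0 of 14 genes, and its median log2 fold change was 0.01. Over all genes tested, 17.9% were separated above IgG and 20.1% below.

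Promoters of cell cycle genes carry short elements by which they are switched on in order, and 4 promoters of genes that fell are shown for these elements. They are, for each of 2 lists, the 2 genes that fell with the smallest p whose only window holds the elements, read from RefSeq promoter windows of GRCm38.p6 that run from 250 bases before to 50 after the start, 5′ to 3′ on the gene's strand. Capitals mark, on either strand, the cell cycle homology region TTTGAA, the CCAAT box CCAAT, and the E2F sites TTTCCCGC, TTTGGCGC, TTTCGCGC and TTTGCCGC. Kif11 (chr19:37376132-37376431, plus strand) and Cenpa (chr5:30666636-30666935, plus strand) are the mitotic genes, and Pola1 (chrX:93632106-93632405, minus strand) and Rfc3 (chr5:151651159-151651458, minus strand) the replication genes.
Kif11: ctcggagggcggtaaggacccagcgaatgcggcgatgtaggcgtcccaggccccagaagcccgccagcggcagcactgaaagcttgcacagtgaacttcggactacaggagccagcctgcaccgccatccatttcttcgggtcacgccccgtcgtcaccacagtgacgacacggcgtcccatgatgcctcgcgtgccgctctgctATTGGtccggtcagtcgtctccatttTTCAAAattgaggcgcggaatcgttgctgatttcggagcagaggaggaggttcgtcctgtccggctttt
Cenpa: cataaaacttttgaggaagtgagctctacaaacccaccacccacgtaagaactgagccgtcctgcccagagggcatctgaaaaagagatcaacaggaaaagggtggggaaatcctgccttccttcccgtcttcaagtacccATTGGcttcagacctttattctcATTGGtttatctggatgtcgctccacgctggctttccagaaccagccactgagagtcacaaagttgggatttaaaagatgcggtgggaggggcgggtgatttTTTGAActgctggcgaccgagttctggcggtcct
Pola1: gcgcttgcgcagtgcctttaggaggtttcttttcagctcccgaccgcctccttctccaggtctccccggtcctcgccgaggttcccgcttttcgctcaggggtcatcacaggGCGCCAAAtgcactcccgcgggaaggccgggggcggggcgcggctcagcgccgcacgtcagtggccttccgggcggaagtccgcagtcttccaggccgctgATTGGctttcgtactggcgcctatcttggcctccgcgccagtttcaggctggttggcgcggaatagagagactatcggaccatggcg
Rfc3: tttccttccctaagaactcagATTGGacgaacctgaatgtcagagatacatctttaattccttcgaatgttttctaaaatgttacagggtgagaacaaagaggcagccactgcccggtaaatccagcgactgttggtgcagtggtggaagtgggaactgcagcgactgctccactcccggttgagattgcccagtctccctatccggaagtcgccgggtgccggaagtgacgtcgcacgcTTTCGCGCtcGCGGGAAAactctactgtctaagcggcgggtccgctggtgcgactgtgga
No element's letters contain those of another, but matches can overlap in part.

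The TTTGAA element was in 76% of the windows of the G2 and mitosis list (19 of 25 windows, 23 genes), against 17.9% of all 32851 windows and 10.3% of the windows of the replication list (3 of 29, 25 genes). The CCAAT box was in 92%, against 37.4% of all windows and 55.2% of the replication list. An E2F site was in 37.9% of the replication list (11 of 29) and 4% of the G2 and mitosis list (1 of 25), against 2.26% of all windows. Among windows of all genes that fell, 12.3% held an E2F site (77 of 628), and among windows of genes that rose 1.94% did (4 of 206). For the whole set of genes that fell, TTTGAA was in 19.4% of windows, close to the share over all windows. A match describes letters in a window and shows no binding.

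Lists of genes for making and moving RNA and protein held calls in 1 direction. Of 138 tested genes in these lists, chromatin regulators included, 44 fell (against 4.14% of all genes tested) and 0 rose. Of the 138, 103 were separated with therapy below IgG (against 20.1% of all genes) and 0 above (against 17.9%). The median log2 fold change of the 138 was -0.55 (-0.41 without IgG replicate 2). Nuclear pore and transport genes fell in 11 of 20. Nup210, a membrane protein of the pore, had 142, 71.2 and 115 CPM with therapy, against 234, 322 and 191 CPM with IgG. Ribosome biogenesis genes fell in 13 of 22. Among them were Nolc1, a nucleolar chaperone of ribosome assembly, at 103, 55.3 and 82.5 CPM with therapy, against 153, 208 and 133 CPM with IgG, and Heatr1, which is needed for ribosomal RNA processing, with a log2 fold change of -0.74 ± 0.15. Utp15, of the same processing complex, fell by 0.67 ± 0.12.

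Spliceosome and RNA processing genes fell in 7 of 20, among them Hnrnpa1, which binds nascent RNA, by 0.88 ± 0.19, the splicing factor Srsf2 by 0.88 ± 0.18 and the helicase Ddx39b, which acts in splicing and mRNA export, by 0.51 ± 0.10. Lists on translation held fewer calls. Translation factors fell in 2 of 15, one being Eif5 at -0.57 ± 0.13. Aminoacyl-tRNA synthetases fell in 2 of 20, one being Farsb at -0.54 ± 0.12, and mitochondrial ribosomal proteins in 1 of 18, Mrpl3 at -0.55 ± 0.14, counts to be read against the 4.14% of all genes that fell. Separation with therapy below IgG was seen for 11 of 15 translation factors, 16 of 20 synthetases and 12 of 18 mitochondrial ribosomal proteins. In each list 0 genes were separated above IgG. None of 21 cytosolic ribosomal proteins was called, and 9 of 21 were separated with therapy below IgG (against 20.1% of all genes tested). Rpl8 had 923, 755 and 739 CPM with therapy, against 977, 1555 and 986 CPM with IgG, a log2 fold change of -0.54 ± 0.18 (adjusted p = 0.0780, edgeR) and -0.29 without IgG replicate 2. Its IgG replicate 2 was far above the other libraries, and the median of the list went to -0.18 without that library, against -0.38 with it.

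Nucleotide and one-carbon metabolism fell in 12 of 20 genes (against 4.14% of all genes tested), with 19 of 20 separated below IgG (against 20.1%). Gart, which carries out several steps of purine synthesis, had 120, 84.5 and 116 CPM with therapy, against 182, 240 and 158 CPM with IgG. Adsl, a later enzyme of the same pathway, fell by 0.92 ± 0.19 on the log2 scale and by 0.69 without IgG replicate 2. Tfrc, the transferrin receptor that brings iron into dividing cells, had 171, 105 and 100 CPM with therapy, against 361, 462 and 226 CPM with IgG, with a log2 fold change of -1.48 ± 0.27. Cholesterol synthesis had no call among 19 genes despite a median of -0.76. Insig1, a sterol sensor in that list, had 234, 103 and 138 CPM with therapy, against 413, 415 and 223 CPM with IgG, and these overlapped (adjusted p = 0.0529, edgeR). Nuclear-encoded genes of the respiratory chain had 0 calls among 20 and a median of -0.20, and the mitochondrially encoded genes 0 among 10 and a median of 0.34.

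Several of the largest falls by fold lay outside the cell cycle lists. Hapln1 (chr13:89539796-89611652), a link protein that ties hyaluronan to proteoglycans in the extracellular matrix, had 7.55, 7.21 and 7.67 CPM with therapy, against 46.5, 71.3 and 17.7 CPM with IgG. The therapy libraries were nearly equal and the IgG libraries ranged widely, with a log2 fold change of -2.59 ± 0.63, and -2.10 without IgG replicate 2. In the same matrix list of 13 tested genes, Layn, a hyaluronan receptor, rose by 1.47 ± 0.33, and Vcan, the proteoglycan versican, had a log2 fold change of 1.08 ± 0.30 (adjusted p = 0.0544, edgeR). Adam12 (chr7:133883199-134232146), a cell surface metalloprotease, had 86.2, 27.9 and 53.5 CPM with therapy, against 243, 223 and 186 CPM with IgG. Its IgG libraries were close to each other, and its fall of 1.96 ± 0.42 was 1.94 without IgG replicate 2.

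Other large falls were those of Prokr1, a receptor of prokineticins, with 4.09, 1.39 and 2.71 CPM with therapy, against 12.97, 17.99 and 9.52 CPM with IgG, and of Car6, a secreted carbonic anhydrase, with 87.6, 45.1 and 48.0 CPM with therapy, against 127, 379 and 161 CPM with IgG. Both were separated between groups. Hmga2, a chromatin protein of embryonic and tumor cells, had 2.09, 0.895 and 1.47 CPM with therapy, against 2.92, 7.58 and 6.99 CPM with IgG. Mgam, Sapcd2, Shisa2, Cdhr2, Nek10 and the noncoding RNA Platr16 fell by 2.45, 2.14, 2.10, 1.98, 1.98 and 1.79 on the log2 scale. Without IgG replicate 2, which was the highest library for both, the log2 fold change was -1.35 for Sapcd2 and -1.26 for Car6, against -2.14 and -1.88 with it. Mgam, Cdhr2, Nek10 and Platr16 averaged under 5 CPM in both groups.

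Hoxa11 (chr6:52242106-52245810, minus strand) and its antisense gene Hoxa11os (chr6:52244393-52249799, plus strand) fell by 1.98 ± 0.51 and 1.97 ± 0.37. They overlap on opposite strands, so without a stated use of strand in counting their reads cannot be told apart. The small nucleolar RNA gene Snord16a (chr9:64175423-64175521) fell, with 0.500, 0.149 and 0.184 CPM with therapy, against 1.196, 1.62 and 0.595 CPM with IgG. Reads of such a small gene can come from a host transcript, and its value is uncertain.

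Further genes that fell, named for a small p among genes of at least 10 CPM, included Recql and Hnrnpdl. Recql, a helicase, had 37.7, 31.4 and 32.7 CPM with therapy, against 49.2, 52.96 and 48.5 CPM with IgG, and Hnrnpdl, an RNA-binding protein, had 105, 96.1 and 85.8 CPM with therapy, against 145, 155 and 154 CPM with IgG. Both groups were tight and separated. Rnf144a, Pdzrn3 and Foxred2 fell by 1.04 ± 0.18, 0.90 ± 0.16 and 0.89 ± 0.16, and Fgfr1op and Tmem131l by 0.79 ± 0.14 and 0.76 ± 0.14. The largest losses in CPM included that of Tubb5, a beta-tubulin, which came to 959 ± 115 CPM on average with therapy and 1482 ± 314 CPM with IgG (SD, n = 3 each, here and in the next sentences). The RNA-binding protein Hnrnpab had a mean of 668 ± 157 CPM with therapy, against 1165 ± 229 CPM with IgG, and Serbp1, another one, 781 ± 141 CPM with therapy and 1255 ± 220 CPM with IgG. All 3 genes were separated. Noct, a circadian phosphatase, had 463 ± 81.5 CPM with therapy, against 928 ± 260 CPM with IgG, and Rcc2, a regulator of mitosis, 733 ± 116 CPM with therapy and 1138 ± 189 CPM with IgG.

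541 of the 660 genes that fell were in no list. Myc and Cd276, chosen after their values were seen, are examples. Myc, the growth regulator that drives ribosome and nucleotide synthesis, had 46.2, 24.7 and 29.95 CPM with therapy, against 67.2, 115 and 66.8 CPM with IgG, with a log2 fold change of -1.30 ± 0.28 and -0.995 without IgG replicate 2. Cd276, the immune checkpoint ligand B7-H3, had 23.0, 19.4 and 22.3 CPM with therapy, against 38.9, 35.6 and 32.0 CPM with IgG. Neither gene overlapped between groups. Rfx7, a transcription factor, fell by 0.65 ± 0.12.

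Of 137 tested genes in the immune lists, 9 rose and 0 fell, against 1.24% and 4.14% of all genes tested. In these lists 116 of 137 were separated with therapy above IgG and 0 below, against 17.9% and 20.1% of all genes, and the median log2 fold change was 2.34 (1.90 without IgG replicate 2). Genes of T cells and of the blocked receptors spread widely. Cd8a, the coreceptor of killer T cells, had 7.77, 23.4 and 20.7 CPM with therapy, against 1.72, 0.152 and 2.28 CPM with IgG, a log2 fold change of 3.63 ± 1.37 (adjusted p = 0.102, edgeR). Gzmb, a granzyme, had 10.1, 69.6 and 47.4 CPM with therapy, against 7.03, 0.404 and 3.12 CPM with IgG (adjusted p = 0.230, edgeR). For Ifng, Pdcd1, Cd274, Ctla4 and Cd4, log2 fold changes were 3.96, 3.08, 2.87, 2.69 and 2.14 with adjusted p-values of 0.147, 0.130, 0.115, 0.201 and 0.127 (edgeR). In all 7 of these genes each therapy library was above each IgG library, and therapy replicate 1 was lowest of the therapy libraries.

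Among the immune genes that rose, Foxp3 (chrX:7573644-7595245), the transcription factor of regulatory T cells, had 2.55, 2.19 and 2.76 CPM with therapy, against 0.479, 0.152 and 0.744 CPM with IgG, a log2 fold change of 2.43 ± 0.57. Tnfrsf18, the receptor GITR of such cells, rose by 2.13 ± 0.51. C3 (chr17:57203970-57228136), the central complement protein, had 103, 153 and 117 CPM with therapy, against 25.4, 10.7 and 33.6 CPM with IgG, a log2 fold change of 2.42 ± 0.52. Cd68, a lysosomal protein of macrophages, had 53.1, 72.9 and 80.8 CPM with therapy, against 19.9, 12.4 and 27.8 CPM with IgG. In these genes no therapy library reached down to an IgG library.

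Nos2 (chr11:78920787-78960254), the inducible nitric oxide synthase of activated macrophages, had 7.68, 54.3 and 22.2 CPM with therapy, against 1.77, 0.707 and 1.44 CPM with IgG. The therapy libraries differed widely among themselves, yet the lowest was above every IgG library, with a log2 fold change of 4.42 ± 0.95, and 4.12 without IgG replicate 2. Slc7a2 (chr8:40862396-40922308), a transporter of arginine, the substrate of that enzyme, had 20.9, 25.3 and 16.1 CPM with therapy, against 4.55, 1.77 and 4.26 CPM with IgG, a log2 fold change of 2.55 ± 0.43. Gatm, which uses arginine to make a creatine precursor, had 57.0, 70.9 and 69.5 CPM with therapy, against 8.85, 1.26 and 14.7 CPM with IgG. Gatm was even across the therapy libraries, and IgG replicate 2 was lowest.

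Eotaxins, chemokines that draw eosinophils, rose as well. Ccl11 (chr11:82057823-82062955) had 3.64, 2.59 and 1.29 CPM with therapy, against 0.239, 0.152 and 0.149 CPM with IgG, and Ccl24 (chr5:135569937-135573049) had 23.5, 3.63 and 0.643 CPM with therapy, against 0.287, 0.000 and 0.0991 CPM with IgG. In both, therapy replicate 1 was highest, unlike in the T cell genes. Log2 fold changes were 3.75 ± 0.53 and 6.08 ± 1.44, and that of Ccl24 rests on few reads with IgG and on 1 therapy library. Siglecf, a surface receptor of eosinophils, had 2.45, 5.02 and 3.12 CPM with therapy, against 0.335, 0.000 and 0.694 CPM with IgG (adjusted p = 0.0635, edgeR). These were the 3 tested genes of an eosinophil and eotaxin list of 11, whose eosinophil ribonuclease gene Ear1 had 0 reads in all 6 libraries, so the list describes few genes. Il1rl1, the receptor of interleukin 33 found on cells of type 2 immunity, was chosen after its values were seen, and had 1.59, 1.49 and 0.965 CPM with therapy, against 0.0957, 0.253 and 0.347 CPM with IgG.

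**Figure D3:**
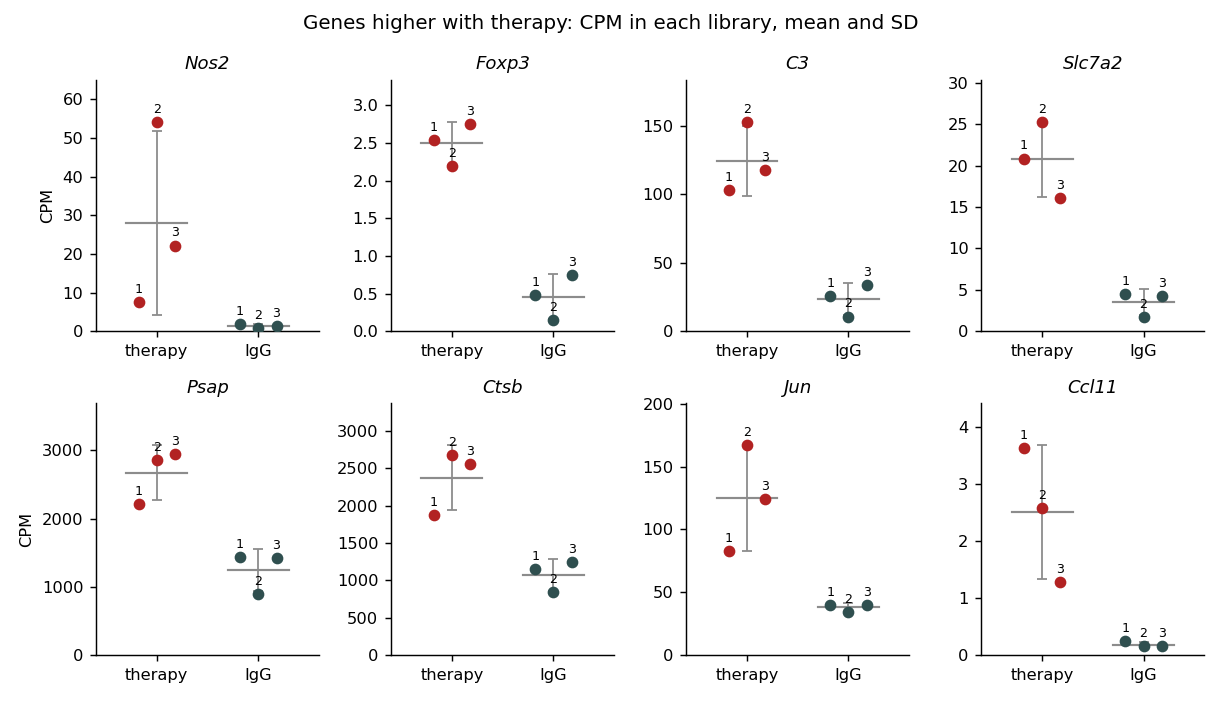
CPM of 8 genes that rose, in each therapy library (left) and each IgG library (right), with points numbered by replicate, a horizontal line at the mean and bars of 1 SD. The groups do not overlap for any of the 8, and Nos2 spreads from 7.68 to 54.3 CPM with therapy while Foxp3 stays between 2.19 and 2.76 CPM.

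Among other large rises, Apol7c, of the apolipoprotein L family, had 3.77, 4.28 and 3.12 CPM with therapy, against 0.239, 0.000 and 0.248 CPM with IgG. That family has near-identical copies, so its value is uncertain. Sla2, an adaptor of lymphocyte receptors, and Tnfsf13b, the B cell survival factor BAFF, rose by 3.48 ± 0.73 and 3.37 ± 0.85, and S1pr4, a lymphocyte receptor of sphingosine phosphate, by 2.69 ± 0.65. F7, coagulation factor VII, had 10.5, 9.95 and 3.08 CPM with therapy, against 1.82, 0.455 and 0.446 CPM with IgG. Arrdc4, an arrestin-like protein, rose by 2.59 ± 0.59. Cd36, a scavenger receptor for fatty acids, and Gpr183, which guides lymphocytes and myeloid cells along oxysterols, were chosen after their values were seen. Cd36 had 25.1, 26.8 and 31.1 CPM with therapy, against 6.27, 5.26 and 4.56 CPM with IgG, and its log2 fold change of 2.37 ± 0.49 was 2.35 without IgG replicate 2. Gpr183 rose by 1.67 ± 0.35.

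Lysosomal genes rose in 5 of 18 (against 1.24% of all genes tested), and 15 of 18 were separated above IgG (against 17.9%). The median of the list was 0.45 with or without IgG replicate 2. Ctsb, a cysteine protease of lysosomes, had 1876, 2685 and 2561 CPM with therapy, against 1146, 837 and 1247 CPM with IgG. Ctsd, an aspartic protease, had 2223, 2333 and 3168 CPM with therapy, against 1488, 1329 and 1872 CPM with IgG. Psap (chr10:60277627-60302597), the precursor of saposins that help degrade sphingolipids, had 2216, 2855 and 2953 CPM with therapy, against 1431, 895 and 1420 CPM with IgG. These groups did not overlap. Ctsl, a further cysteine protease, rose by 0.76 ± 0.19, and Tfeb, a transcription factor that activates lysosomal genes, by 0.48 ± 0.11. Cst3, an inhibitor of cysteine cathepsins, had 458, 700 and 647 CPM with therapy, against 285, 202 and 330 CPM with IgG. The 14 genes of the macrophage list summed to 791 to 1103 CPM with therapy and 138 to 338 CPM with IgG, without overlap. The 12 homeostatic microglia genes summed to 834 to 1249 CPM with therapy and 447 to 891 CPM with IgG. Those microglia sums overlapped, but the mean log2 CPM of that list did not. It was 4.25, 4.84 and 5.24 with therapy, against 3.16, 1.16 and 3.98 with IgG. Of the 12 microglia genes, 7 were separated above IgG, and of the 14 macrophage genes, 11. The part of macrophages and microglia in the lysosomal rise was not tested.

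Immediate early genes, transcription factors switched on within minutes of a signal, rose in 5 of 14 (against 1.24% of all genes tested). Of the 14, 11 were separated above IgG (against 17.9% of all genes) and 1 below (against 20.1%). Jun (chr4:95049034-95052222) had 83.0, 167 and 124 CPM with therapy, against 39.9, 34.0 and 39.6 CPM with IgG, with a log2 fold change of 1.72 ± 0.29, and 1.65 without IgG replicate 2. Junb had 68.2, 136 and 104 CPM with therapy, against 40.8, 48.5 and 47.0 CPM with IgG. In both genes the IgG libraries were close together, IgG replicate 2 included. Egr2, Egr1 and Fosb rose by 2.41 ± 0.52, 2.13 ± 0.52 and 2.51 ± 0.62.

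Spop, a substrate adaptor of a ubiquitin ligase, had 122, 153 and 136 CPM with therapy, against 96.0, 86.6 and 94.9 CPM with IgG. Gstp2, a glutathione transferase, had 102, 116 and 124 CPM with therapy, against 67.8, 63.2 and 79.7 CPM with IgG, but it is nearly identical to a neighbouring copy and can share its reads. Blcap and Sh3kbp1 rose by 0.70 ± 0.12 and 0.71 ± 0.12, and Cryab, a small heat shock protein, by 0.88 ± 0.17. Tmbim6, an inhibitor of cell death in the endoplasmic reticulum, was among the largest gains in CPM, with 1099 ± 217 CPM with therapy and 681 ± 36.8 CPM with IgG (SD, n = 3 each).

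Genes of the brain lists rose in 6 of 103 tested (against 1.24% of all genes). Of the 103, 65 were separated above IgG (against 17.9%) and 1 below (against 20.1%). These lists include disease-associated microglia, with 10 of 13 separated above IgG, and reactive astrocytes, with 8 of 14. Some of their members, such as Itgax, Gbp2 and Cxcl10, are also in immune lists. The neuron list had 0 of 13 separated. Cnp, an enzyme of myelin, had 139, 158 and 215 CPM with therapy, against 66.3, 38.2 and 87.7 CPM with IgG, and Ugt8a, which makes myelin lipids, rose by 1.32 ± 0.32. Olfml3, a microglial gene, had 19.0, 36.7 and 51.6 CPM with therapy, against 7.80, 6.72 and 13.1 CPM with IgG. Adora2a, the adenosine receptor of striatal neurons, had 7.96, 5.02 and 9.51 CPM with therapy, against 1.48, 0.859 and 1.88 CPM with IgG, a log2 fold change of 2.41 ± 0.42. Osmr, a cytokine receptor of reactive astrocytes, rose by 0.81 ± 0.19. Nts (neurotensin), Bdnf, Syndig1l and Folh1, genes known from neurons or glia, rose by 3.58, 2.65, 4.73 and 3.41 on the log2 scale, and Syndig1l spread from 1.34 to 9.96 CPM with therapy. Nts and Folh1 were under 3 CPM in every library.

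General neuronal genes did not separate. Snap25, a synaptic protein, had 60.9, 228 and 207 CPM with therapy, against 66.4, 1.26 and 119 CPM with IgG, with a log2 fold change of 1.41 ± 1.07 (adjusted p = 0.349, edgeR), 0.83 without IgG replicate 2 and -0.27 with the neuron list as a covariate. Mbp, the myelin basic protein, had 789, 331 and 692 CPM with therapy, against 232, 155 and 439 CPM with IgG, and overlapped (adjusted p = 0.0969, edgeR). The striatal list of 11 tested genes was separated above IgG for 10 of them (against 17.9% of all genes tested). It summed to 177, 121 and 192 CPM with therapy, against 57.2, 27.4 and 75.5 CPM with IgG. How much normal brain each dissected piece held was not measured, and its part in the rise of brain genes was not tested. Tubb3, a tubulin of neurons that some melanoma cells also make, had 230, 369 and 390 CPM with therapy, against 144, 94.5 and 171 CPM with IgG. Pecam1, of endothelial cells, rose by 0.76 ± 0.16, the sole call among 14 endothelial genes (against 1.24% of all genes tested). Of those 14, 7 were separated above IgG (against 17.9%) and 1 below (against 20.1%).

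Pigment cell genes showed no call (against 5.39% of all genes tested). Pmel, a scaffold of melanosomes, had 7850, 7661 and 7303 CPM with therapy, against 7318, 5407 and 6598 CPM with IgG (adjusted p = 0.336, edgeR), and Mitf, the master regulator of melanocytes, had 1209, 601 and 655 CPM with therapy, against 1114, 757 and 978 CPM with IgG (adjusted p = 0.590, edgeR). Both genes overlapped. The log2 fold change was 0.36 ± 0.16 for Mlana and -0.23 ± 0.10 for Sox10. Levels of the 14 genes had log2 fold changes between -0.23 and 0.36, and the sign of the list's median turned in 6 of the alternative settings. In a list of neural crest and dedifferentiated melanoma genes, 2 of 13 tested rose (against 1.24% of all genes tested), Jun and Egfr. Egfr, a growth factor receptor, had 4.14, 6.22 and 4.78 CPM with therapy, against 2.44, 1.97 and 2.28 CPM with IgG.

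**Figure D4:**
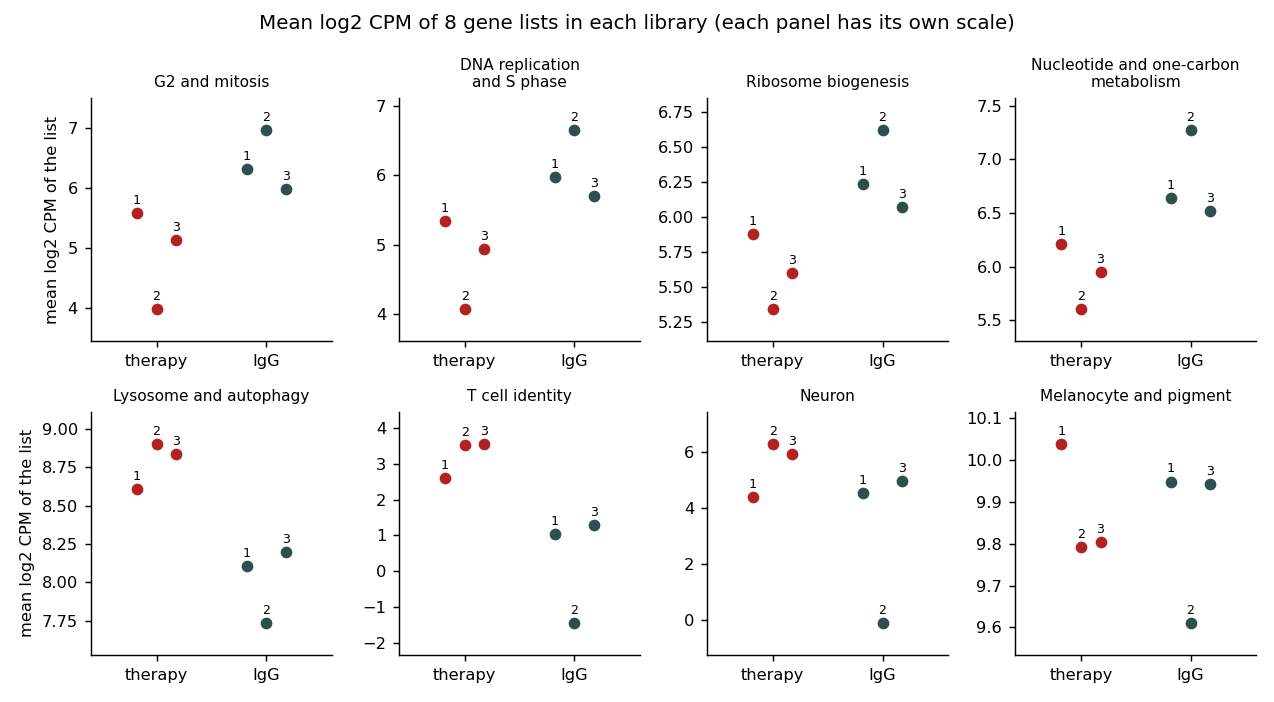
Mean log2 CPM of the genes of 8 lists in each therapy library (left) and each IgG library (right), with points numbered by replicate and a separate y scale per panel. The 4 growth lists and the lysosomal and T cell lists separate the groups, with therapy replicate 1 nearest to IgG in each, while the neuron and melanocyte lists overlap and IgG replicate 2 is lowest in both.

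The hypoxia and glycolysis list, with 0 calls of 15, had a median of -0.02 whose sign turned in 12 of the settings, and the p53 target list, with 0 of 15, a median of -0.08. Over all genes tested 5.39% were called, so 0 calls among 14 or 15 genes, here and below, says little. The unfolded protein response list had 0 of 15 and a median of -0.29, but 0.11 without IgG replicate 2. For collagen and fibroblast genes, 0 of 14, the median was 0.62, and 1.24 without that library. Their sums were 983, 879 and 224 CPM with therapy, against 241, 688 and 291 CPM with IgG, so therapy replicate 3 was lowest of all. Of the 14, 2 were separated above IgG (against 17.9% of all genes tested) and 0 below (against 20.1%).

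**Figure D5:**
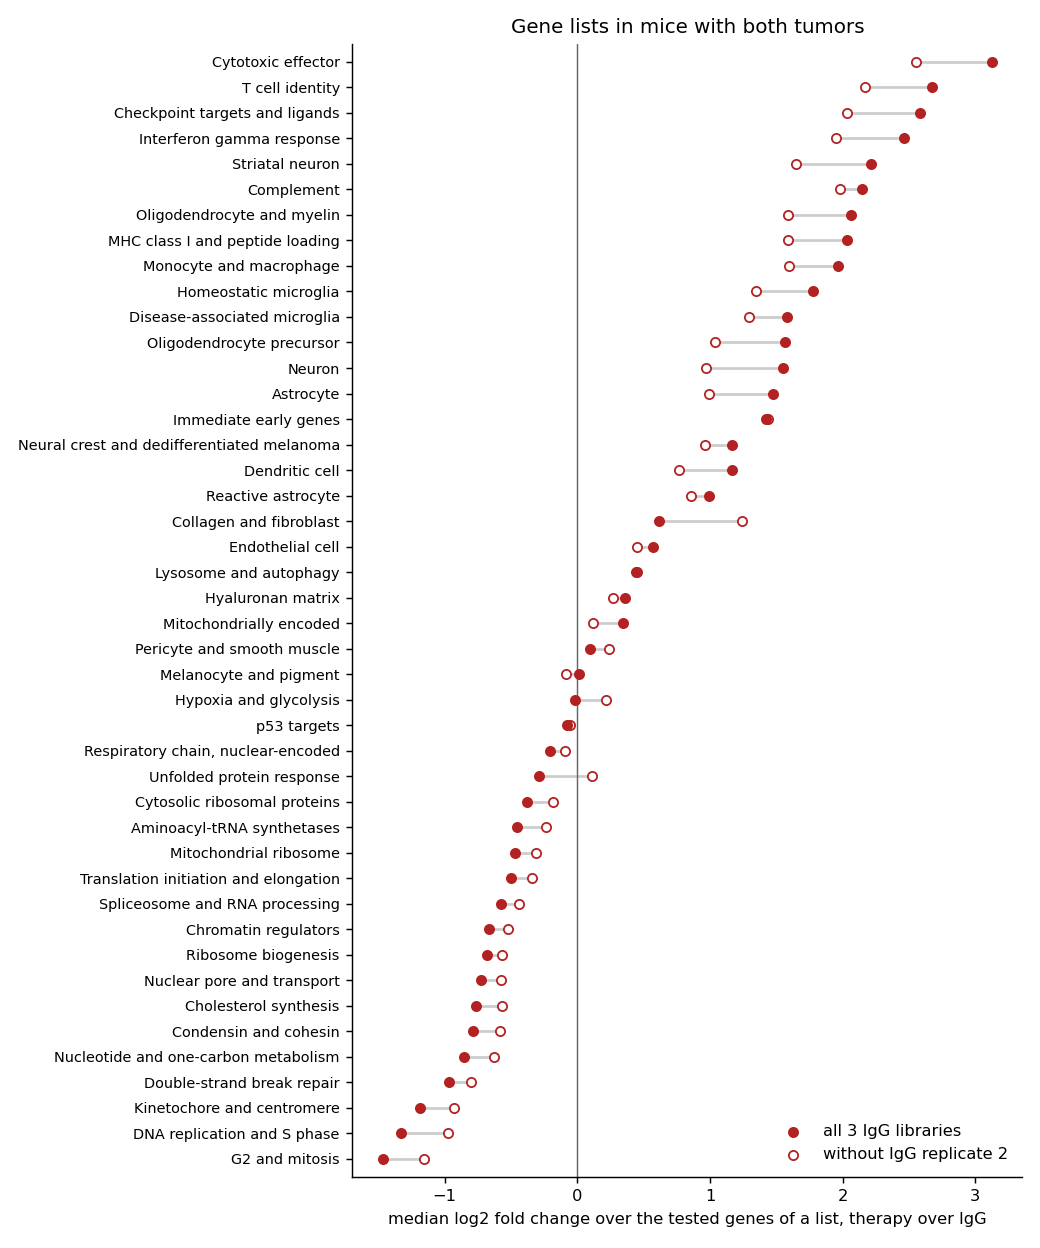
Median log2 fold change (therapy over IgG) over the tested genes of each list with at least 10 tested genes, with all 3 IgG libraries (filled) and without IgG replicate 2 (open). Medians run from -1.47 for G2 and mitosis to 3.13 for cytotoxic effectors, most are nearer to 0 without that library, and those of hypoxia, unfolded protein response and pigment genes lie on the other side of 0.

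The series also allows the therapy effect with both tumors to be set against that with the intracranial tumor only, where 0 genes passed an adjusted p of 0.05 (2151 had an unadjusted p under 0.05, edgeR) and the lowest adjusted p was 0.134. The difference between both effects, tested as an interaction, passed for 3505 genes (22%), 1924 above 0 and 1581 below. Among 117 cell cycle genes, 96 passed below 0 and 0 passed above it. Among 138 genes of RNA and protein production, 79 passed below 0 and 0 above it. Over all 15925 genes tested, 1581 passed below 0 and 1924 above it. The log2 effect for Mki67 was -1.56 with both tumors and 0.47 with the intracranial tumor only, and the difference was -2.03 ± 0.55. Among the genes with the smallest p below 0 were Recql, Mre11a, Pms1 and Rfx7, with differences of -1.21 to -0.89. Those with the smallest p above 0 were Ccl11 (6.69 ± 0.84), Adora2a (4.22 ± 0.60), Prkd1 (5.88 ± 0.88), Nts (9.49 ± 1.28) and Gstp2 (1.03 ± 0.16).

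The level of the neuron list moved with this contrast, and the amount of brain tissue was not measured. The mean log2 CPM of the neuron list was 4.39, 6.29 and 5.95 in the therapy libraries with both tumors and 4.55, -0.09 and 4.98 in the IgG libraries with both tumors. With the intracranial tumor only it was 0.62, -0.82 and -0.999 with therapy and 4.46, 3.33 and 4.79 with IgG. In the interaction all 13 neuron genes passed the threshold above 0, and so did 66 of 103 genes of the brain lists. Over all 15925 genes tested, 1924 did. With the neuron list as a covariate, 0 genes passed. Leaving out 1 library also gave 0 for therapy replicates 2 and 3 and IgG replicate 1 of the mice with both tumors, and for any therapy library or IgG replicate 2 or 3 of the mice with the intracranial tumor only.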

How the data were processed

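RNA of whole dissected tumors was sequenced (RNAqueous-Micro extraction and NEBNext Ultra libraries, per the labels' protocols). The authors deposited a table of raw read counts per gene and a table of FPKM values. TopHat2 2.0.12, Bowtie2 2.2.3, HTSeq 0.6.1 and the builds GRCm38 and mm10 are named in the submitters' processing notes, and neither the annotation release nor the use of strand is stated there. The deposited FPKM values entered alternatives only.

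Counts were tested with edgeR 4.0.16 (R 4.3.3, limma 3.58.1): filterByExpr (minimum count 10, total 15), TMM factors, 4 group means over 12 libraries, glmQLFit and glmQLFTest, with Benjamini-Hochberg adjustment over all 15925 genes and a threshold of 0.05. The SE of a log2 fold change is its size divided by the square root of F. The biological coefficient of variation was 33.5%. P-values measure the spread between these mice. CPM uses TMM-scaled library sizes, with a prior count of 2 on the log2 scale. Gene coordinates are from GENCODE M21 (GRCm38). The procedure was tested on simulated data.

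The members and gene lists were chosen with earlier results of these data known. Genes were named by a rule: the largest fold changes, the smallest p at a mean of at least 10 CPM, the largest CPM differences, up to 3 genes per list, 13 genes always, and the 5 smallest interaction p in each direction. Not all are described, and some items are not reported here. Genes said to be chosen after their values were seen stand outside the rule. Alternatives were DESeq2 1.42.0, RLE factors, limma voom, log2(FPKM + 1) and log2(FPKM + 0.1), filters, robust and newer edgeR settings, the neuron list as a covariate, both groups alone and leaving out each library. Both groups alone without IgG replicate 2 was added after seeing the data.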

Additional observations from a re-analysis of the deposited data

Results flagged for a closer look

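A difference between 2 effects stood out: the therapy effect with both tumors minus the therapy effect with the intracranial tumor only, tested as an interaction in edgeR's quasi-likelihood test, passed an adjusted p of 0.05 for 3505 genes. That is 22% of all genes tested. It passed for 104 of the 127 genes examined by name, 46 above 0 and 58 below. Most of these were named for their therapy effect with both tumors, which is part of this difference, or for its p. A high share among them was therefore built in by the choice. Values below are this difference on the log2 scale, and the limits given above for the neuron list and single libraries hold for each.

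Among cell cycle and repair genes the differences were Ccnb1 (-2.35), Mki67 (-2.03), Top2a (-1.88), Kif11 (-2.00), Cenpa (-1.95), Lig1 (-1.69), Gins2 (-1.38), Pola1 (-1.51), Rfc3 (-1.07), Cenph (-1.89), Ndc80 (-1.98), Cenpc1 (-0.71), Ncapd2 (-1.87), Stag1 (-1.03), Mre11a (-1.10), Chek1 (-2.07) and Pms1 (-1.21). Among genes of chromatin, RNA, transport, translation and purine synthesis they were Ezh2 (-1.79), Dnmt1 (-1.55), Hnrnpa1 (-1.11), Hnrnpdl (-0.79), Hnrnpab (-1.04), Srsf2 (-1.05), Ddx39b (-0.61), Nup210 (-1.54), Nolc1 (-1.30), Heatr1 (-1.04), Utp15 (-0.94), Eif5 (-0.61), Farsb (-0.61), Mrpl3 (-0.69), Gart (-1.20) and Adsl (-1.08). Other genes below 0 were Tfrc (-1.98), Insig1 (-1.58), Mgam (-3.04), Prokr1 (-2.36), Sapcd2 (-2.74), Snord16a (-2.46), Cdhr2 (-2.27), Nek10 (-2.37), Hoxa11os (-1.82), Hmga2 (-2.56), Adam12 (-2.12), Car6 (-2.63), Platr16 (-2.21), Rnf144a (-1.34), Pdzrn3 (-1.25), Foxred2 (-1.21), Tmem131l (-1.05), Recql (-0.89), Fgfr1op (-1.01), Tubb5 (-0.87), Serbp1 (-0.87), Noct (-1.51), Rcc2 (-0.80), Myc (-1.71) and Rfx7 (-0.97).

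Among immune and arginine genes the differences were Ccl11 (6.69), Nos2 (5.56), Foxp3 (3.02), C3 (3.10), Cd68 (2.14), Tnfsf13b (4.24), Sla2 (5.20), S1pr4 (4.01), Siglecf (5.61), Gpr183 (2.18), Cd36 (2.34) and Slc7a2 (3.31). Lysosomal and immediate early genes had Psap (1.42), Ctsb (1.57), Ctsd (0.90), Ctsl (0.99), Tfeb (0.67), Cst3 (1.79), Jun (2.11), Junb (1.65), Egr1 (3.42), Egr2 (2.27) and Fosb (2.75). Genes known from brain cells had Snap25 (7.35), Adora2a (4.22), Cnp (2.04), Ugt8a (1.72), Olfml3 (2.91), Osmr (1.67), Nts (9.49), Bdnf (5.47), Syndig1l (10.09), Folh1 (8.75) and Tubb3 (1.91). Of these, Nts and Folh1 rest on the low levels given above, and the size of their differences is uncertain. Other genes above 0 were Apol7c (6.93), F7 (3.47), Gatm (4.67), Arrdc4 (3.59), Gstp2 (1.03), Spop (0.74), Blcap (0.94), Sh3kbp1 (0.88), Cryab (1.16), Layn (2.57), Pecam1 (1.11) and Prkd1 (5.88).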

How the results depend on the processing

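All calls lay just inside the threshold and their number changed with the settings. No called gene changed sign in any of them, for which the separated groups left little room. With edgeR, 0 genes were called, higher or lower, with RLE factors (5265 at an unadjusted p under 0.05), without a filter on low counts (6028), with both groups alone (4214), with both groups alone without IgG replicate 2 (3593) and with the neuron list as a covariate (2511). DESeq2 called 3323 genes (1345 higher, 1978 lower), newer edgeR settings 2016 (751 and 1265), limma voom 1695 (651 and 1044), log2(FPKM + 0.1) 1759 (544 and 1215), log2(FPKM + 1) 2630 (1211 and 1419), and log2(FPKM + 1) without a filter 56 (52 and 4). A minimum count of 50 called 1250 (311 and 939), and robust fitting 897. The share of calls that were higher was 23.1% as reported, 40.5% with DESeq2, 37.3% with newer edgeR settings, 38.4% with limma voom, 30.9% with log2(FPKM + 0.1), 46.1% with log2(FPKM + 1) and 92.9% without its filter. Leaving out 1 library gave 0 to 2394 calls (0 to 853 higher, 0 to 1557 lower). Outside the compared groups, it gave 1271 without IgG replicate 2 of the mice with the intracranial tumor only and 0 without each of the other 5. Genes with all therapy libraries above IgG numbered 3118 to 5316 when 1 library was left out, and those below 3437 to 4404. For the interaction, limma voom called 1584 genes, log2(FPKM + 1) without a filter 3, the neuron covariate 0, and leaving out 1 library 0 to 4367. Snap25 turned to -0.27 with the neuron covariate. Over 3 libraries a group, depth was not varied, and the cause of these changes was not tested. The next counts are over pairs of 1 named gene, or 1 list, and 1 alternative setting, not over genes. For named genes, 1479 values kept direction and side of the threshold, 1640 lost the call, 39 gained one and 1 reversed. For medians of lists, 1363 moved by less than the spread and 36 by more. No paired analysis was possible because the labels give no replicate numbers that the groups share.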

Other observations

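Some values lay outside the comparisons above and were chosen after they were seen. On chromosome 6, 59 of 875 tested genes fell (6.74%) and 2 rose (0.229%), against 4.14% and 1.24% over all genes tested. On chromosome 7, 29 of 1182 fell (2.45%) and 26 rose (2.2%). No test was run on these shares.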
